A study of Mus musculus with 14 samples.

Results

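The immunity-related GTPases (IRG) are a family of interferon-inducible GTPases, and 6 of the genes in the deposited count table belong to the set described here: IRGM1, IRGM2, IGTP, IIGP1, TGTP1 and TGTP2. They were chosen by name, as the 6 rows that carry these symbols among 24982 listed genes, and with earlier results of these data known. All 6 passed the filter on low counts that left 13136 genes for testing. Every member was higher in colonic macrophages of mice without *Il10ra* than in WT macrophages, by 2.09-fold for IRGM2 up to 46.7-fold for TGTP1 in IL10RAKO mice (n = 4 mice per genotype). The fold of TGTP1 depends on how reads were divided between it and the nearly identical TGTP2, and that division is uncertain. Their levels in mice that also lacked *Ccr2* gave no detectable difference from those in mice that lacked *Il10ra* alone.

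The study asked how the CCR2 chemokine receptor shapes the colitis of mice without the interleukin-10 receptor. Macrophages (CD45+ CD64+ CD11b+ MHCII+, and Ly6C-, Ly6G- and CD103-) were sorted from the lamina propria of the colon and cecum of C57BL/6 mice aged 5 weeks under SPF conditions. The WT mice carried the colitis susceptibility locus *Cdcs1* alone, IL10RAKO mice carried *Cdcs1* and Il10ra -/-, and DKO mice carried *Cdcs1* with both Il10ra -/- and Ccr2 -/-. A single CCR2KO mouse carried *Cdcs1* and Ccr2 -/-. All groups therefore share *Cdcs1*, and the labels name no deletion restricted to macrophages, so a difference between these macrophages cannot be assigned to their own receptors. The labels name no litter, sex or batch. Each genotype was represented by 4 mice in the tests, and WT mouse 11 and CCR2KO mouse 6 are given as values only.

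IRG proteins act against pathogens that live inside vacuoles. Interferon gamma binds its receptor and activates the kinases JAK1 and JAK2, and transcription factors such as IRF1 then switch on the IRG genes in macrophages and many other cells. Effector IRG proteins (IIGP1, TGTP1 and TGTP2 here) load onto the vacuole and help to break it, while the regulatory IRG proteins (IRGM1, IRGM2 and IGTP) sit on the cell's own membranes and hold the effectors inactive there. The 2 classes differ in the nucleotide-binding P-loop, where effectors have the usual lysine and regulators a methionine.

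That difference was visible in the transcripts, and the stretch of codons is shown because it sorts the members by role. Each line gives the 24 coding bases of the P-loop from the GENCODE vM21 transcripts (GRCm38, sense strand of the transcript), 5′ to 3′, and the capitals mark the codon that separates the classes.
IRGM1, codon 89 in capitals: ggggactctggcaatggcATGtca
IRGM2, codon 89 in capitals: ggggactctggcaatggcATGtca
IGTP, codon 97 in capitals: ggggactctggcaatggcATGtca
TGTP1, codon 69 in capitals: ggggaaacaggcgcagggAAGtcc
TGTP2, codon 69 in capitals: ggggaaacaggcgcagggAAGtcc
ATG encodes methionine and AAG encodes lysine. The 3 regulators were identical over these 24 bases, and so were TGTP1 and TGTP2. In IIGP1 the corresponding codon is number 82 and also encodes lysine. Over the whole coding sequence the regulators were 62.5% to 66.4% identical to each other, IIGP1 was 57.0% to 57.1% identical to the TGTP genes, and a regulator and an effector shared 47.6% to 50.5%.

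The promoters are shown as a description, and their part in the rise of the members was not tested. RefSeq promoter windows of 300 bases (250 before the transcription start and 50 from it, GRCm38.p6) were matched for 5 of the 6 members: IRGM1, IRGM2, IGTP, TGTP1 and TGTP2. They were searched on both strands for the core letters of the gamma-activated site (GAS, TTCNNNGAA) and of the interferon-stimulated response element bound by IRF proteins (ISRE, GAAANNGAAA). In the lines below, given 5′ to 3′ on the strand of the gene, the capitals mark these core letters.
IGTP, chr11:58199492-58199541, plus strand: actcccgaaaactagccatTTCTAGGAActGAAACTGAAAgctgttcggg
IRGM2, chr11:58214883-58214932, plus strand: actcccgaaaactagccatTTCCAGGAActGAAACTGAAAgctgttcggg
TGTP1, chr11:48992304-48992353, minus strand: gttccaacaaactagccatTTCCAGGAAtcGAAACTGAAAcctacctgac
TGTP2, chr11:49064263-49064312, minus strand: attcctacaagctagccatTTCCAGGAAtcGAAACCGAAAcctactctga
IRGM1, chr11:48871428-48871457, minus strand: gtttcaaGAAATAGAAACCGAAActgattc
The ISRE core was present in 5 of 5 windows and the GAS core in 4 of 5, the exception being IRGM1, which held a pair of overlapping ISRE cores. Of all 32851 promoter windows, 3.44% held the ISRE core, 8.30% the GAS core and 0.454% both. In IGTP, IRGM2, TGTP1 and TGTP2 the GAS core was followed by 2 bases and then the ISRE core. That exact arrangement, on either strand, occurred in 5 of the 32851 windows, namely those 4 and the window of GM12185, another IRG gene. The stretches of IGTP and IRGM2 differed at 1 of 50 bases, those of TGTP1 and TGTP2 at 9 of 50. In GENCODE vM21 the stretch of IGTP lies outside any annotated gene, that of IRGM2 in an intron of IRGM2, that of TGTP1 in an intron of TGTP1, those of TGTP1 and TGTP2 in an intron of the olfactory receptor gene *Olfr56* on the other strand, and that of IRGM1 in an exon of a longer noncoding IRGM1 transcript. A match of letters is a description of the sequence, and no binding was measured.

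**Figure D1:**
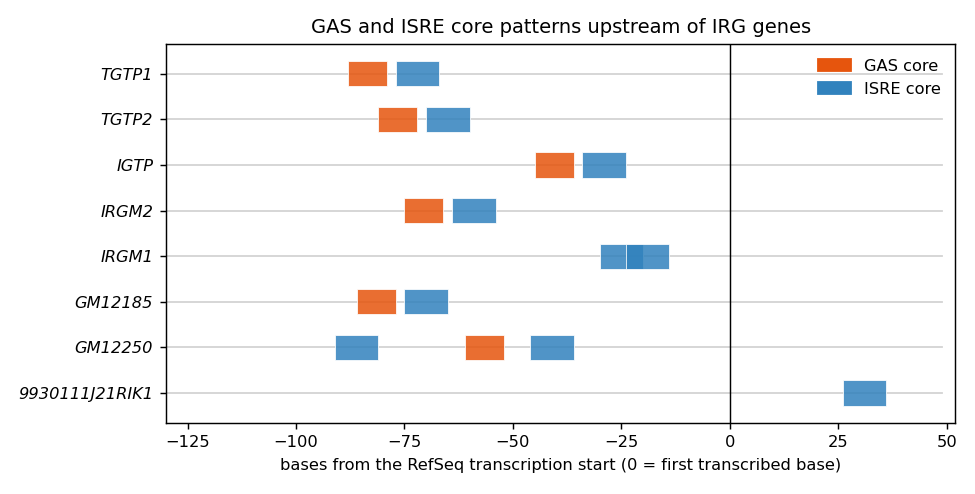
Positions of the GAS and ISRE core letters in the RefSeq promoter windows of 5 members and of 3 other IRG genes. Those 3 are the ones with a match among the other IRG genes off chromosome 18. Positions are bases from the transcription start on the gene's strand (position 0 is the first transcribed base). The GAS and ISRE cores stand side by side, 2 bases apart, in TGTP1, TGTP2, IGTP, IRGM2 and GM12185, between 88 and 25 bases before the start, and IRGM1 has only the overlapping ISRE cores at 30 to 15 bases before it.

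Between 13085287 and 21216468 reads per library were counted on genes in the 12 tested libraries. The targeted genes followed the labels: IL10RA was at 217 to 380 CPM (counts per 1e+06 reads, TMM scaled) in WT mice and at 3.41 to 11.2 CPM in IL10RAKO and DKO mice, and CCR2 was at 361 to 702 CPM in WT and IL10RAKO mice and at 3.92 to 6.68 CPM in DKO mice. The 12 macrophage marker genes of the sorted cells summed to 43412 to 76753 CPM in every library, a sum made up mostly of CD74 and H2-AB1. Of these 12 genes, 3 (CD14, FCGR1 and H2-AB1) were higher in IL10RAKO mice, and 2 (CD14 and MERTK) were higher and 2 (ADGRE1 and CX3CR1) lower in DKO mice. Markers of other cells moved with genotype. The 6 fibroblast genes were all lower in the mutants, with sums of 294 to 577 CPM in WT mice, 15.0 to 53.7 CPM in IL10RAKO mice and 16.1 to 67.0 CPM in the DKO group, while 5 of 6 tested neutrophil genes were higher, with sums of 76.1 to 126 CPM in WT mice, 145 to 333 CPM in IL10RAKO mice and 209 to 286 CPM in the DKO group. The neutrophil sum was made up mostly of CSF3R, with means of 87.3 CPM in WT, 198 CPM in IL10RAKO and 181 CPM in DKO mice. LY6G had at most 12 reads in any of these libraries and was not tested. Over all 13136 tested genes 1143 were higher and 933 lower in IL10RAKO mice, and 1213 higher and 1211 lower in DKO mice. Of 6 dendritic cell genes, 4 were higher in IL10RAKO and 3 in DKO mice, and of 4 endothelial genes 1 and 2 were lower. The part of these cells in the results on the members was not tested. In bulk samples a larger share of cells that express a gene and more RNA per cell cannot be told apart.

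The main comparison set each mutant genotype against WT. All 6 members were called higher in IL10RAKO mice (edgeR quasi-likelihood test, Benjamini-Hochberg adjusted p under 0.05 over all tested genes), where 8.7% of the tested genes were called higher. All 6 were likewise called higher in DKO mice, against 9.23% of the tested genes. The lowest mutant mouse lay above the highest WT mouse for each member in both comparisons, an arrangement found upward for 9.45% of genes in IL10RAKO and 11.2% in DKO mice. The median log2 difference of the members was 3.04 in each comparison, beside -0.07 and -0.06 over all tested genes. Both comparisons use the same 4 WT mice and are therefore not independent of each other. Levels below are given in the order WT mice 4, 5, 10 and 13, IL10RAKO mice 1, 2, 7 and 8, and DKO mice 3, 9, 12 and 14.

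**Figure D2:**
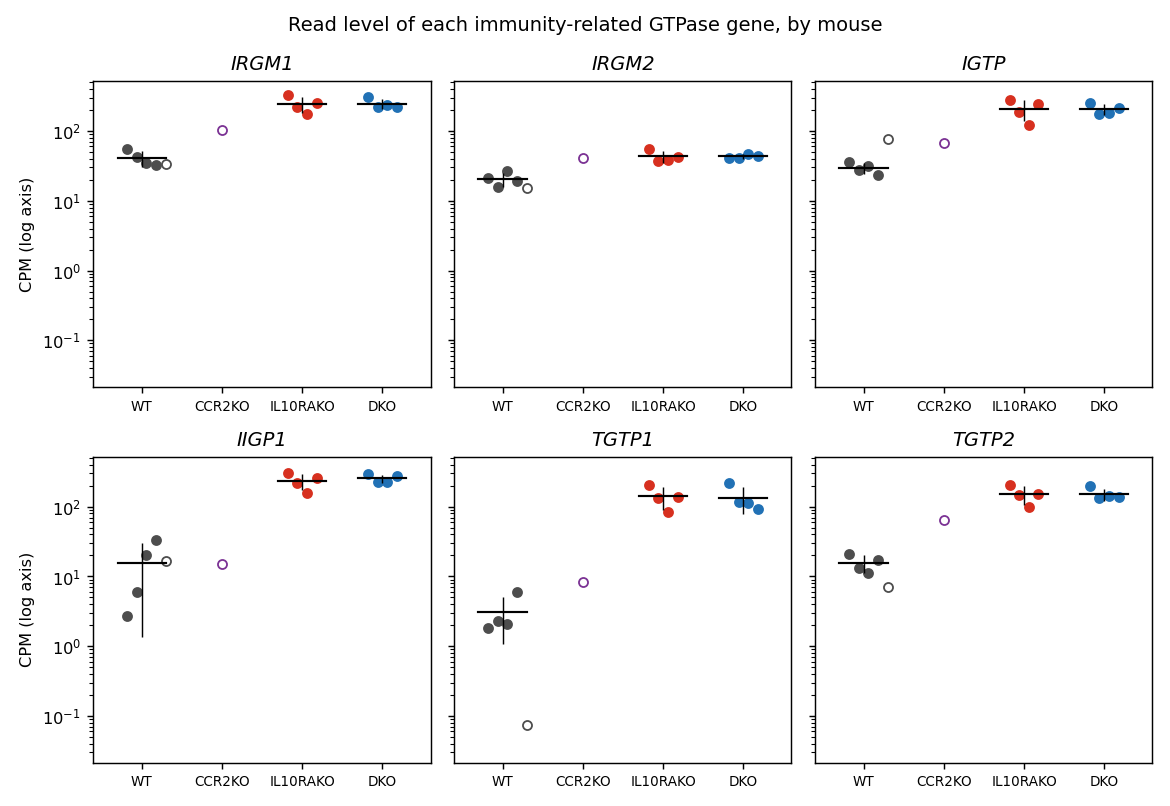
Level of each member in each mouse, in CPM on a log axis, by genotype. Filled points are the mice of the tests (n = 4 per genotype), with a horizontal line at their mean and a vertical line for ± 1 SD. Open points are WT mouse 11 and CCR2KO mouse 6, which entered no test. Every IL10RAKO and DKO mouse lies above every filled WT mouse in all 6 panels, and the gap is narrowest for IRGM2.

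The regulators rose by unequal amounts. IRGM1, the regulator that mice need for resistance to several intracellular pathogens, stood at 55.2, 42.8, 34.5 and 32.4 CPM in WT, at 329, 220.3, 174 and 251 CPM in IL10RAKO and at 305, 223, 233 and 224 CPM in DKO mice. The WT mice were close together, and the lowest mutant, IL10RAKO mouse 7, was still far above WT mouse 4. The log2 difference from WT was 2.56 (SE 0.228, adjusted p = 4.51e-06) in IL10RAKO, a 5.91-fold rise, and 2.58 (SE 0.228, adjusted p = 3.61e-06) in DKO mice.

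IGTP, also called Irgm3, is found on the endoplasmic reticulum and lipid droplets. Its levels were 36.0, 27.6, 31.1 and 23.5 CPM in WT, 279, 185, 120.0 and 241 CPM in IL10RAKO and 253, 173, 184 and 214 CPM in DKO mice. IL10RAKO mouse 7 was again the lowest mutant and IL10RAKO mouse 1 the highest, and no mutant reached down to the WT range. The log2 difference from WT was 2.80 in both mutants (SE 0.250 in each, adjusted p = 4.51e-06 in IL10RAKO and 3.89e-06 in DKO), a 6.98-fold rise in IL10RAKO mice.

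IRGM2, a regulator of the Golgi membranes, rose the least of the 6. It was counted at 20.9, 15.5, 26.6 and 19.2 CPM in WT, at 54.9, 37.2, 38.2 and 42.2 CPM in IL10RAKO and at 41.1, 40.8, 47.2 and 43.6 CPM in DKO mice. The DKO mice were nearly level with each other, and IL10RAKO mouse 2, the lowest mutant, was above WT mouse 10, the highest WT mouse. The log2 difference was 1.07 (SE 0.189) in each mutant, with adjusted p = 0.00143 in IL10RAKO and 0.00123 in DKO mice. Its interval in IL10RAKO mice, 0.66 to 1.47, lay below the intervals of the other 5 members, the nearest of which was that of IRGM1 at 2.07 to 3.05.

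Among the effectors, IIGP1 was at 2.67, 5.92, 20.3 and 33.8 CPM in WT, at 306, 218, 159 and 256 CPM in IL10RAKO and at 292, 227, 226 and 271 CPM in DKO mice. The WT mice differed from each other more than for any regulator, with mice 4 and 5 low and mice 10 and 13 higher, yet the highest of them stayed below every mutant. The log2 difference was 3.91 (SE 0.578, adjusted p = 3.55e-04) in IL10RAKO and 4.02 (SE 0.581, adjusted p = 2.49e-04) in DKO mice, and these standard errors were the largest among the members.

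TGTP1 and TGTP2 are neighbouring genes whose product was first known as the T-cell-specific GTPase. Their sequences are nearly identical, so the division of reads between them is uncertain and their separate values carry that limit. TGTP1 was low in WT mice, at 1.81, 2.29, 2.11 and 5.99 CPM (38, 39, 51 and 90 reads), and stood at 203, 134, 83.9 and 139 CPM in IL10RAKO and 216, 115, 113 and 92.0 CPM in DKO mice. WT mouse 13 was above the other WT mice, and DKO mouse 3 and IL10RAKO mouse 1 led the mutants. The log2 difference was 5.55 (SE 0.448, adjusted p = 2.34e-06) in IL10RAKO, a 46.7-fold rise, and 5.48 (SE 0.447, adjusted p = 1.87e-06) in DKO mice.

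By the reads assigned to each gene, TGTP2 started higher and rose less than its neighbour. Its levels were 21.2, 13.1, 11.2 and 17.0 CPM in WT, 208, 149, 98.1 and 151 CPM in IL10RAKO and 197, 133, 141 and 136 CPM in DKO mice. Each mutant mouse exceeded every WT mouse by a wide margin, with IL10RAKO mouse 7 nearest. The log2 difference was 3.28 (SE 0.264) in both mutants, with adjusted p = 2.34e-06 in IL10RAKO and 1.79e-06 in DKO mice. With the reads of the pair summed into a single row, the log2 difference was 3.97 in IL10RAKO and 3.94 in DKO mice.

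**Figure D3:**
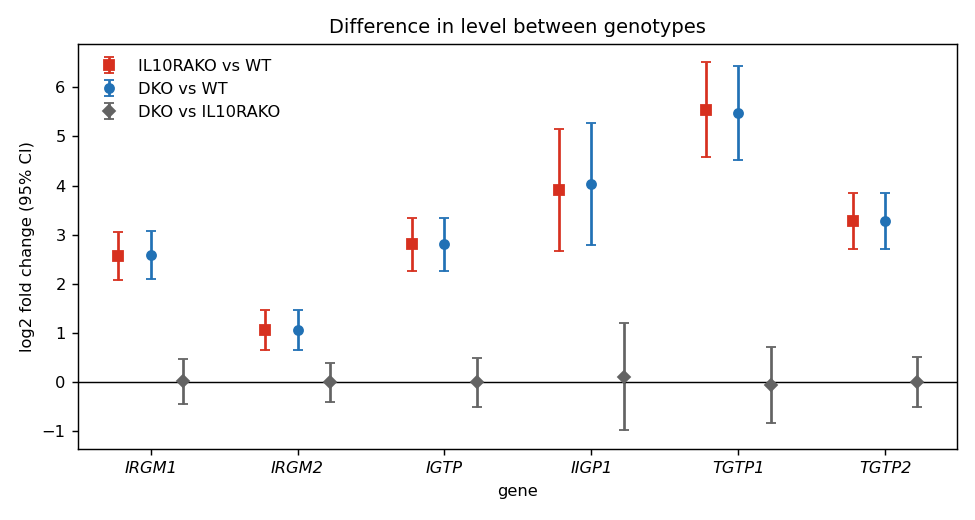
Log2 fold change of each member in the 3 comparisons with its 95% confidence interval (edgeR quasi-likelihood fit of 12 mice). Squares (IL10RAKO against WT) and circles (DKO against WT) run from 1.07 for IRGM2 to 5.55 for TGTP1 and lie side by side for each gene. Diamonds (DKO against IL10RAKO) lie between -0.06 and 0.11, and all their intervals include 0.

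The comparison of DKO with IL10RAKO mice asked whether loss of *Ccr2* altered the members once *Il10ra* was absent. None of the 6 was called in either direction by edgeR, and 0 of 6 had an unadjusted p under 0.05. DESeq2 also called 0. Over all tested genes 0.0152% were called higher and 0.0305% lower, so the count for the members is that of nearly every gene. An unadjusted p under 0.05 was found for 388 of 13136 genes. The log2 differences were 0.02 for IRGM1 (95% interval -0.44 to 0.48), 0.00 for IRGM2 (-0.40 to 0.40) and 0.00 for IGTP (-0.50 to 0.50). For the effectors they were 0.11 for IIGP1 (-0.98 to 1.21), -0.06 for TGTP1 (-0.83 to 0.71) and 0.00 for TGTP2 (-0.51 to 0.52), all with an adjusted p of 0.99992. The intervals thus leave room for a change of about the size of IRGM2's rise in IIGP1, and for smaller changes in the regulators. The groups overlapped for every member, as for nearly all tested genes, of which 2.41% showed no overlap.

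Summed over the 6 members, the level was 138, 107, 126 and 132 CPM in the WT mice, 1379, 945, 674 and 1080.1 CPM in IL10RAKO mice and 1305, 912, 945 and 981 CPM in DKO mice. The mutants overlapped each other throughout, and IL10RAKO mice had both the highest and the lowest mutant total. The make-up of this total changed with genotype. IRGM2 gave 14.5% to 21.2% of it in WT but 3.15% to 5.67% in IL10RAKO and DKO mice, and IRGM1 gave 24.5% to 40.1% in WT and 22.8% to 25.9% in the mutants. TGTP1 moved the other way. It gave 1.32% to 4.54% of the total in WT mice and 9.38% to 16.6% in the mutants. These shares follow from the unequal rises above and were not tested, and that of TGTP1 also depends on the uncertain division of reads with TGTP2.

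Levels of different genes were compared per kilobase of the longest coding transcript, as means ± SD of 4 mice. In IL10RAKO mice the order was IRGM1 (108 ± 28.8 CPM per kb), IGTP (102 ± 34.2), IIGP1 (75.3 ± 19.8), TGTP2 (53.9 ± 15.9), TGTP1 (49.6 ± 17.3) and IRGM2 (12.2 ± 2.31). The ranges of neighbours in this order overlapped, except that IRGM2 lay below all others. DKO mice had the same order of means, and there IIGP1 (72.6 to 93.6) did not overlap TGTP2 (47.2 to 70.2) either. In WT mice IRGM1 (18.2 ± 4.58) and IGTP (14.6 ± 2.62) stood above IRGM2, TGTP2 and IIGP1, whose means of 5.02 to 5.83 CPM per kb were within their spreads. TGTP1 had the lowest WT mean (1.08 ± 0.698) and overlapped only IIGP1. The top of the order depends on the length used: per kilobase of all annotated exons IGTP was first in all 3 genotypes, since the annotated exons of IRGM1 (5.81 kb) include a long noncoding transcript. IRGM2 remained last in the mutants and TGTP1 last in WT under either length.

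The neighbourhood of the genes bears on what the counts can separate. In GRCm38 IRGM1 lies at chr11:48861968-48871683, TGTP1 at chr11:48985327-48994172 and TGTP2 at chr11:49057194-49064206, all on the minus strand, and IGTP (chr11:58199556-58207591) overlaps IRGM2 (chr11:58199618-58222782) on the plus strand of the same chromosome. IIGP1 is alone among the members on chromosome 18 (chr18:60376027-60392634, plus strand). IGTP and IRGM2 share 162 annotated exon bases, which is 8.01% of the exon bases of IGTP and 4.39% of those of IRGM2, and TGTP1 shares 223 exon bases with GM12185. TGTP1 and TGTP2 are harder to part. Their coding sequences differ at 4 of 1245 bases (G270C, C408T, C729T and C735A, with the base of TGTP1 before the position, counted from 1 at the start codon, and the base of TGTP2 after it). None of the 4 alters the encoded protein. Of all windows of 100 bases in the transcripts, 83.3% of TGTP1 and 80.4% of TGTP2 were also found in another gene, against 0% for IRGM1 and IIGP1. How the authors' counting treated reads that fit several genes is not stated, so the division of reads within the TGTP pair is uncertain.

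That division nevertheless differed between genotypes. TGTP1 received 7.88%, 14.9%, 15.9% and 26.0% of the pair's reads in WT mice, 49.5%, 47.4%, 46.1% and 47.9% in IL10RAKO mice and 52.3%, 46.5%, 44.6% and 40.3% in DKO mice. The mutants lay near an even division and no mutant came near the WT mice. The mean was 16.2% ± 7.47 (SD, n = 4) in WT, 47.7% ± 1.40 in IL10RAKO and 45.9% ± 4.97 in DKO mice. By an exact permutation test, two-sided, p was 0.0286 for each mutant against WT, the smallest value that 4 against 4 mice allow (0.0429 after adjustment over 3 comparisons), and 0.543 between the mutants. In CCR2KO mouse 6, with 1462 reads on the pair, the share was 11.4% (95% exact binomial interval 9.84% to 13.2%, which covers counting error only). In WT mouse 11 it was 1.04%, 1 of 96 reads. This measure was added after the counts of the pair had been seen.

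Other IRG genes were taken from a list drawn up with earlier results of these data known. Of the 13 that the table lists, 11 could be tested, and 6 were higher and 0 lower in each mutant against WT. IFI47, which encodes the effector Irgd, showed log2 differences of 2.97 (SE 0.243, adjusted p = 2.34e-06) in IL10RAKO and 2.99 in DKO mice. The others with a fold were F830016B08RIK (4.15 and 4.06), GM12185 (3.09 and 3.00), GM4951 (3.01 and 3.22) and GM12250 (1.98 and 2.14), the last of which encodes the effector Irgb10. GM4841 had 0 or 1 read in each WT mouse against 19 to 42 reads per IL10RAKO mouse and 34 to 72 per DKO mouse, and no fold is given. GM12185 had 0 to 44 reads per WT mouse and F830016B08RIK 8 to 31, so the size of their folds is uncertain. The reads of GM12185 can be those of TGTP1 where their exons overlap. The 5 that did not pass were GM5431, IRGC1, IRGQ and a pair of RIKEN cDNA genes, with log2 differences of -0.34 to 0.81 in IL10RAKO mice. IRGC1 and IRGQ are members of the family by sequence that are not known as interferon-induced, and the other 3 lie between IRGM1 and TGTP2 on chromosome 11. No listed gene passed between DKO and IL10RAKO mice.

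Of the pathway that induces the members, the signal transducers rose in part and the receptors were not called. IFNG itself was at 0.573, 0.586, 3.56 and 2.33 CPM in WT, at 23.7, 20.3, 6.22 and 9.05 CPM in IL10RAKO and at 43.1, 3.36, 7.17 and 8.40 CPM in DKO mice. IFNG was higher in every IL10RAKO mouse than in any WT mouse, while DKO mouse 9 fell within the WT range. The log2 difference was 3.05 (SE 0.807, adjusted p = 0.0190) in IL10RAKO and 3.12 (SE 0.809, adjusted p = 0.0148) in DKO mice. Macrophages are not the usual source of IFNG, which T and NK cells secrete. The summed level of 12 T and NK cell markers was 156 to 202 CPM in WT mice, 86.5 to 158 CPM in IL10RAKO mice and 83.5 to 159 CPM in the DKO group, with 0 of 11 tested called higher and CD4 called lower in IL10RAKO, and NKG7 called higher and CD4 lower in DKO mice. Most of the WT sum was CD4, with means of 111 CPM in WT, 62.0 CPM in IL10RAKO and 59.4 CPM in DKO mice. Earlier studies cited by the paper describe CD4 on mature macrophages of the bowel, so CD4 here need not mark T cells. The median log2 difference of the 11 tested markers was 0.80 in IL10RAKO and 0.86 in DKO mice. The part of such cells in the level of IFNG was not tested. IL27, IL12B and IL12A, cytokines that act on T and NK cells, were also higher in both mutants, with log2 differences of 2.93, 3.45 and 3.59 in IL10RAKO mice. IL12A had 0 to 53 reads per WT mouse, so the size of its fold is uncertain. The ligand list held interferons and these cytokines, and 6 of its genes were tested. Of these 6, IFNG, IL12A, IL12B and IL27 were higher in each mutant, and IL18 was lower in DKO mice. The only other interferon tested, IFNB1, was not called in either mutant, with log2 differences of 1.98 in IL10RAKO and -1.03 in DKO mice. It ran from 0.557 to 47.4 CPM in IL10RAKO mice (median 5.38, beside 3.47 in WT), so the 1.98 rests largely on the highest mouse. Between DKO and IL10RAKO mice IFNB1 differed by -3.01 and was not called either (edgeR, unadjusted p = 0.00829, adjusted p = 0.99992).

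For the 6 interferon receptor genes 0 were called in any comparison by edgeR, with log2 differences of -0.51 to 0.38 in IL10RAKO mice. Over all tested genes 8.7% were called higher in IL10RAKO mice, so 0 of 6 does not set the receptors apart. IFNGR1, the ligand-binding chain, differed by 0.38 (adjusted p = 0.159) in IL10RAKO and 0.15 in DKO mice on the log2 scale, and IFNGR2, the signalling chain, by 0.36 in each (adjusted p = 0.157 and 0.143). IFNAR1 differed by 0.31 and 0.12. Of 10 signal transducers 4 were higher in IL10RAKO and 5 in DKO mice, and 0 were lower. IRF1 rose by 1.75 and 1.74, IRF7 by 1.51 and 1.30, IRF8 by 0.81 and 0.87, and JAK2 by 1.28 and 1.38 on the log2 scale. JAK1 gave -0.06 and 0.10 and was not called. Among 9 signal inhibitors 4 were higher in each mutant, led by SOCS1 (2.30 and 2.54), the feedback inhibitor of JAK kinases, and by the phosphatases PTPN2 (0.97 and 0.80) and PTPN1 (1.16 and 1.04).

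Genes that work beside the IRG proteins were taken from lists drawn up with earlier results of these data known. The lists differed in how many genes passed. Of 11 guanylate-binding proteins, large GTPases that follow IRG proteins to the vacuole, 10 were higher in each mutant, with the smallest p in IL10RAKO mice for GBP2 (4.44 and 4.63 on the log2 scale), GBP2B (3.02 and 2.94) and GBP4 (2.98 and 2.79). GM1966, the only very large inducible GTPase of 4 in the table that could be tested, differed by 0.51 and 0.55. Of 10 other genes known to respond to interferon gamma 9 were higher in each mutant, among them the chemokines CXCL9 (5.45 and 5.60) and CXCL10 (3.41 and 3.04) and the protease inhibitor SERPINA3G (4.30 and 4.54). Of 9 tested genes of vacuole ubiquitin and its adaptors 5 were higher in each mutant, with ISG15 at 2.88 and 2.43 and TAX1BP1 at 1.04 and 1.11. The ubiquitin-like UBD had 0 reads in all WT mice, 0.354 to 4.30 CPM in IL10RAKO mice and 2.11 to 4.20 CPM in the DKO group. The autophagy conjugation genes, which direct IRG proteins to vacuoles, mostly did not pass: 1 of 14 was higher in IL10RAKO, and 2 were higher and 1 lower in DKO mice. Over all tested genes 8.7% were called higher in IL10RAKO and 9.23% in DKO mice, so these few calls do not set that list apart. ATG10 differed by 0.83 and 0.81 and was called in both, GABARAPL1 by 0.54 and 0.61, and ATG3 by 0.48 and 0.30. The medians of these lists in IL10RAKO mice were 2.98 for guanylate-binding proteins, 3.61 for the other responsive genes and 0.25 for autophagy genes, beside -0.07 over all genes. In none of the lists was a gene called between DKO and IL10RAKO mice.

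**Figure D4:**
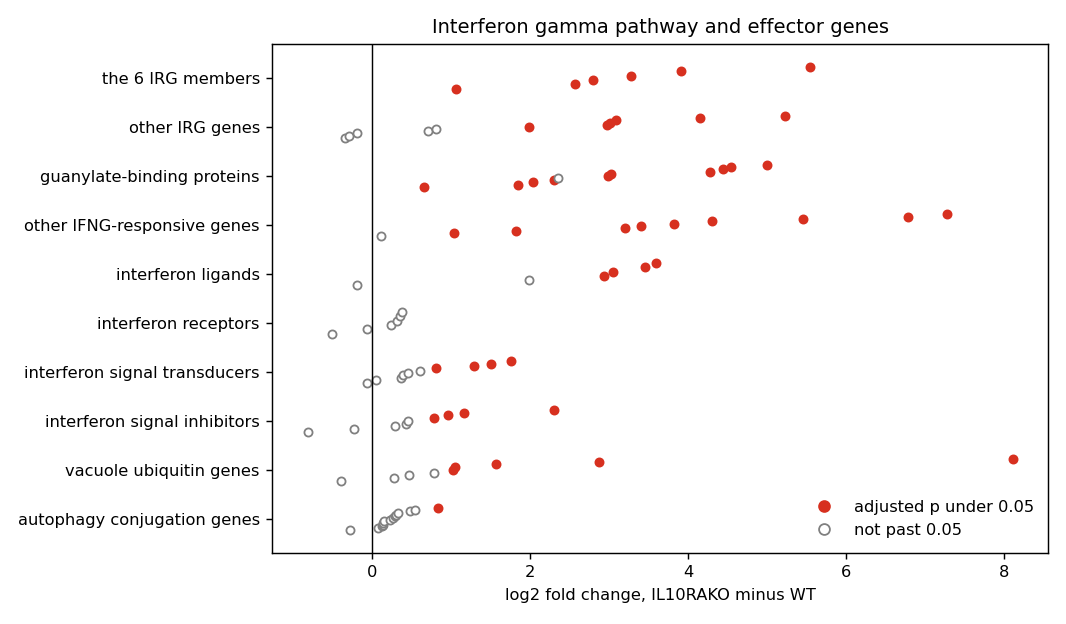
Log2 fold change in IL10RAKO against WT mice of each tested gene, by list. Filled points have an adjusted p under 0.05 and open points do not. The list of interferon ligands also holds the cytokines IL12A, IL12B, IL18 and IL27. The 6 members (1.07 to 5.55) and the guanylate-binding proteins lie to the right of 0, the 6 interferon receptor genes are all open and near 0, and 13 of 14 autophagy genes are open. The fitted values of GM4841 and UBD, with 0 or 1 read in each WT mouse, are not measured folds.

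Among the 8 mice without *Il10ra* the level of each member was set against that of IFNG on the log2 scale (Pearson and Spearman, exact permutation of the pairings, two-sided, adjusted over the 6 members). Pearson's r was 0.81 for TGTP1 (exact p = 0.0175, adjusted 0.0699), 0.78 for TGTP2 (exact p = 0.0233, adjusted 0.0699), 0.69 for IRGM1 (exact p = 0.0553, adjusted 0.111), 0.62 for IGTP (exact p = 0.0981, adjusted 0.147), 0.56 for IIGP1 (exact p = 0.144, adjusted 0.173) and 0.17 for IRGM2 (exact p = 0.687, adjusted 0.687). Spearman's rho was 0.90 for TGTP2 (exact p = 0.00456, adjusted 0.0217), 0.88 for IGTP (exact p = 0.00724, adjusted 0.0217), 0.81 for TGTP1 (exact p = 0.0218, adjusted 0.0436), 0.67 for IRGM1 (exact p = 0.0831, adjusted 0.125), 0.62 for IIGP1 (exact p = 0.115, adjusted 0.138) and 0.21 for IRGM2 (exact p = 0.619, adjusted 0.619). By rank, then, TGTP1, TGTP2 and IGTP passed the threshold, and by Pearson's r no member did. On library totals without TMM none passed by rank either (adjusted p = 0.0559 for each of these 3, exact permutation test). Without the 2 mice farthest from the median of IFNG, DKO mouse 3 and IL10RAKO mouse 1, r fell to between -0.30 for IRGM2 and 0.43 for TGTP2 (n = 6), so the relation by Pearson's r rests on those 2 mice, without which the range of IFNG is also narrower. Spearman's rho without them was 0.83 for TGTP2, 0.77 for IGTP and 0.54 for TGTP1, and -0.14 to 0.26 for the other 3 members. Each genotype holds only 4 mice, too few for a value within genotype.

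Among the genes most like the members over the 12 mice, by Pearson's r with the mean of their standardised levels, were IFI47 (0.992), GBP2B (0.988), the antigen peptide transporter TAP1 (0.987) and SLAMF8 (0.986). The 12 points fall into a low WT cluster and a high mutant cluster, so these values mostly describe the step between them. With each genotype's mean subtracted, a different set came first, namely SKAP2 (0.936), NIPSNAP3B (0.931), PCYOX1L (0.925), B4GALT3 (0.914) and POLR3K (0.912). They are the highest values picked from all tested genes outside the members over only 12 mice. Such a choice alone can give high values of r, and none of them was tested. Among the members themselves the 15 pairwise correlations ran from 0.872 to 0.992 over the 12 mice. With genotype means subtracted they spread from -0.40, between IRGM1 and IIGP1, to 0.86, between IRGM1 and IGTP. These values pool the 3 genotypes, and IIGP1 varied most in WT mice, where mice 10 and 13 were above mice 4 and 5 for both IIGP1 and IFNG while IRGM1 ran the other way. In IL10RAKO mice IIGP1, IRGM1 and IGTP had the same order, with mouse 1 highest and mouse 7 lowest, and DKO mouse 3 was the highest of its group for all 3.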

How the data were processed

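RNA of sorted macrophages was made into cDNA with SmartSeq v4 and sequenced as 150 bp read pairs. The submitters' processing notes name bcl2fastq 2.20, STAR 2.5.1b, edgeR 3.34.0 and the build mm10, whereas the annotation, the strand setting and the treatment of reads with several matches are not given in the sources used here. The authors deposited raw counts per gene for 14 libraries, and these counts were used without change. The authors also deposited edgeR pseudocounts of 12 libraries, a score that adjusts each count to a common library size, which served only in 1 alternative.

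The 12 libraries of that table (4 mice of each of 3 genotypes) were tested. Genotypes came from the labels. Labels and methods give 1 mouse per library, and p-values measure the spread between these libraries. Counts were analysed with edgeR 4.0.16 in R 4.3.3 (filterByExpr by genotype with a minimum count of 10, TMM, a single quasi-likelihood fit, Benjamini-Hochberg threshold 0.05). CPM values use the TMM scale, and log2 CPM a prior count of 2. A count of 3 reads, the least that the depth can show, was 0.124 to 0.211 CPM. Intervals of read shares cover counting error only. Totals of counted reads were 13085287 to 21216468 per library.

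Positions, transcripts and coding sequences came from GENCODE vM21 and promoters from RefSeq (GRCm38.p6). Coding sequence was the longest open reading frame of the longest coding transcript. The members and lists were chosen with earlier results of these data known. Text names all members, every listed IRG gene, IFNG and its main signalling genes, the 3 genes of smallest p in IL10RAKO against WT from the pathway lists, IL10RA, CCR2 and the 5 most alike genes, except 1 gene that is not reported here. NKG7, CD4, CSF3R, LY6G, IFNB1, IL18 and the macrophage markers were named after their values were seen. Alternatives were DESeq2 1.42.0, RLE factors, totals without TMM, other filters, fits of 2 genotypes, 13 libraries, robust dispersion, the edgeR 4 deviance, summed TGTP reads, the pseudocounts and each library left out.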

Additional observations from a re-analysis of the deposited data

Results flagged for a closer look

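In groups of 4 mice, the highest or lowest mouse was compared with its nearest neighbour relative to the range of the group, for 6 members in 3 genotypes (18 groups). In 3 groups a mouse stood apart: DKO mouse 3 for IRGM1 (305 CPM) and for TGTP2 (197 CPM), and WT mouse 13 for TGTP1 (5.99 CPM). Chance gives about 1 in 20 such groups, and the values of DKO mouse 3 come from the same library, which also had the highest level of IFNG.

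The libraries outside the tests held members above the highest of the 4 tested WT mice. CCR2KO mouse 6 had IRGM1 at 103 CPM (highest WT 55.2), IRGM2 at 41.5 CPM (26.6), IGTP at 66.9 CPM (36.0), TGTP1 at 8.25 CPM (5.99) and TGTP2 at 63.9 CPM (21.2), while IIGP1, at 15.2 CPM, was within the WT range. IRGM2 in this mouse lay within the range of the mutants without *Il10ra*, and the other 4 lay below it. IFNG was counted with 1 read there. The marker sums of B and plasma cells (2611 CPM) and of fibroblasts (681 CPM) were the highest of the 14 libraries in this mouse, and their part in these levels was not tested. With 1 mouse of this genotype there is no replicate and no test. In WT mouse 11 IGTP was at 77.2 CPM, above the other WT mice, while IRGM1 (34.0 CPM) and IIGP1 (16.9 CPM) lay within and IRGM2 (15.2 CPM), TGTP1 (0.0733 CPM) and TGTP2 (6.96 CPM) lay below the range of the tested WT mice. The epithelial marker sum of that mouse was 3278 CPM, against 51.8 to 1298 CPM in the tested WT mice, and its part was not tested. The TGTP1 value in that mouse is 1 read and below what the depth can show.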

How the results depend on the processing

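All 6 members remained called higher than WT in both mutants, and 0 were called between the mutants, under DESeq2, RLE factors, library totals without TMM, no filter, 10 counts in every library, fits of 2 genotypes, 13 libraries, robust dispersion, the edgeR 4 deviance and each library left out. With TGTP1 and TGTP2 summed, all 5 rows were called. Over these settings and the pseudocounts, log2 differences from WT in IL10RAKO mice ran from 0.75 to 1.22 for IRGM2 and from 5.22 to 6.08 for TGTP1. Library totals without TMM shifted the median of all genes to -0.38 in IL10RAKO and -0.32 in DKO mice, and 651 of 2735 and 748 of 2888 called genes were then higher, against 1143 of 2076 and 1213 of 2424 with TMM.

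Between DKO and IL10RAKO mice, DESeq2 called 24 genes in place of 6, and the cause was not tested. Leaving out single libraries gave 4 to 10 called genes there, 10 without IL10RAKO mouse 2. The sign of the differences near 0 turned in that comparison. IGTP (-0.001) became 0.00510 under DESeq2, 0.00513 with RLE factors, 0.0777 without TMM, 0.00484 without a filter, 0.000943 with 10 counts in every library, 0.0133 with only 2 genotypes and 0.000934 with the edgeR 4 deviance, and TGTP1 became 0.0132 without TMM. With single libraries left out, the differences ran from -0.103 to 0.20 for IRGM1, -0.0618 to 0.14 for IRGM2, -0.17 to 0.18 for IGTP, -0.0175 to 0.27 for IIGP1, -0.39 to 0.18 for TGTP1 and -0.15 to 0.19 for TGTP2. None passed the test, and the cause of the turns was not tested.

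The correlations with IFNG kept their direction and side of the threshold by Pearson's r on log2(CPM + 1) and without TMM. By Spearman's rho no member passed without TMM (smallest adjusted p 0.0559, exact permutation test). No paired analysis was possible because the genotypes hold different mice that share no replicate number in the labels. The mean TGTP1 share in WT mice, with each library left out after the data had been seen, was 12.9% to 18.9%. The depth limits TGTP1 most, with 38 to 90 reads per WT mouse.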
